A study of Mus musculus with 13 samples.

Results

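The genes of complexes II, III and IV of the mitochondrial electron transport chain (ETC), of cytochrome c and of the factors that assemble these complexes were examined in Sertoli cells of adult male mice. Members were chosen by gene symbol, that is by the names of the succinate dehydrogenase, ubiquinol-cytochrome c reductase and cytochrome c oxidase subunits and of their known assembly factors. The rule found 63 genes among the 27111 named features of the deposited table. They comprised 4 subunits and 4 assembly factors of complex II, 9 subunits and 6 assembly factors of complex III, *Cycs* for cytochrome c, and 18 subunits and 21 assembly factors of complex IV.

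Complex II oxidizes succinate and passes the electrons to ubiquinone, complex III hands them on to cytochrome c, and complex IV, the cytochrome c oxidase, transfers them to oxygen. All subunits of complex II are encoded in the nucleus, whereas cytochrome b of complex III and COX1, COX2 and COX3 of complex IV are made from mitochondrial DNA. Dedicated assembly factors insert heme, copper and iron-sulfur clusters and join the subunits. Several complex IV subunits exist as a ubiquitous form and as a form of heart and muscle, lung or testis.

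The samples were wild-type C57Bl/6J males of 3 to 5 months. In the MSUS group (maternal separation at unpredictable times together with stress of the mother, n = 7), pups had spent 3 h per day away from the dam between postnatal days 1 and 14, while the dam was exposed to a cold swim (5 min at 18°C) or to restraint (20 min); control males (n = 6) were undisturbed. Each sample came from 1 animal. Which animals shared a litter or cage was not analysed here. Sertoli cells, the somatic cells that support the germ cells inside the seminiferous tubules, had been enriched by sorting diploid, large cells with a high MitoTracker signal, so a mitochondrial dye was itself part of the gate in both groups. Total counts ranged from 13087203 to 18649945 in control and from 12701776 to 15693938 in MSUS samples.

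The labelled cell type was checked against its markers. All 10 Sertoli cell markers passed the count filter, and their summed level was 15890 ± 1132 CPM (counts scaled to the library total; SD, n = 6) in control and 15350 ± 1060 CPM (SD, n = 7) in MSUS samples, led by *Clu*. RNA of germ cells was also present: the 4 elongated spermatid markers summed to 1163 ± 211.6 CPM in control and 1330 ± 384.4 CPM in MSUS samples (*Prm2* highest), and the 5 spermatocyte markers to 730.5 ± 73.2 and 698 ± 163 CPM (*Hspa2* highest). The 4 macrophage markers together reached 0.567 ± 0.266 CPM in control and 0.747 ± 0.677 CPM in MSUS samples, and *C1qa* had at most 3 counts in any sample. No difference between the groups was detected for these germ cell lists by exact permutation tests over samples (two-sided, p = 0.374 and p = 0.463, adjusted p = 0.596 for both over 11 measures compared). The 3 peritubular myoid markers summed to 7.02 to 55.7 CPM (mean 21.5) in control and 9.78 to 81.3 CPM (mean 37) in MSUS samples, highest in MSUS 5. The mean log2 CPM of the 2 of them that passed the count filter, *Acta2* and *Myh11*, did not differ detectably (exact permutation p = 0.349, adjusted p = 0.596 over the 11 measures). The Leydig and endothelial lists summed to means of at most 60.8 CPM. In such bulk samples, fewer cells of a type and less RNA per cell cannot be told apart.

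Promoter sequences are shown for *Sdhd*, *Uqcr11* and *Cox6a1*, the 3 of the 8 members with p under 0.05 between the groups whose promoter window held a motif of NRF1 or of ETS factors. Known regulators of nuclear ETC genes include NRF1 and the ETS factor GABPA. Windows of 300 bases, 250 before to 50 after the transcription start, were taken from RefSeq on GRCm38.p6 and were at hand for 50 of the 63 members (51 windows). The motifs searched, on both strands, were that of NRF1 (GCGCA and GCGC with 1 free base between them), CCGGAAG for ETS factors and AAGATGGC for YY1. The ETS motif occurred in 41.2% of the member windows, against 16.3% of the windows of all genes tested and 8.86% of all promoters in the table. The corresponding shares were 13.7%, 9.42% and 4.6% for the NRF1 motif and 7.84%, 4.14% and 2.75% for the YY1 motif. Among the assembly factors of complex IV, 9 of 18 genes with a window held the ETS motif, and among the complex IV subunits 3 of 13. The stretches below are given 5′ to 3′ on the strand of the gene, which is the minus strand for all 3, with the motif in capitals. In *Sdhd*, an NRF1 motif lay 79 to 70 bases before the start, and an ETS motif, read on the opposite strand, 46 to 40 bases before it.
Sdhd, NRF1 motif, chr9:50603904-50603943: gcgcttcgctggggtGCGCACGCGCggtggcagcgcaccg
Sdhd, ETS motif, chr9:50603874-50603910: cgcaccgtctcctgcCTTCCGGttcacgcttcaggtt
In *Uqcr11*, an ETS motif lay 66 to 60 bases before the start.
Uqcr11, ETS motif, chr10:80406866-80406902: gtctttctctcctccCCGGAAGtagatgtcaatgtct
In *Cox6a1*, NRF1 motifs lay 162 to 153 and 117 to 108 bases before the start.
Cox6a1, first NRF1 motif, chr5:115349096-115349135: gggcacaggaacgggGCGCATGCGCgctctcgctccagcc
Cox6a1, second NRF1 motif, chr5:115349051-115349090: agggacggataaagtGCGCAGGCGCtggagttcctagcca
A further ETS match near the start of *Cox6a1* is not shown. These are matches of letters, and binding was not measured.

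Of the 63 members, 60 passed the count filter. *Cox4i2*, *Cox6a2* and *Cox8b* did not, with at most 2 counts in any sample. The members were well expressed, since 39 of 60 lay above the median gene in control samples (4.86 against 4.31 log2 CPM for the medians). Counts were whole numbers, within 0.01, in all 13 samples for 33 members. For the others a fractional estimate may mean that reads were divided with another feature, which was not tested. *Cycs*, *Cox7c*, *Coa5*, *Cox14*, *Cox16*, *Sco1*, *Sco2* and *Sdhaf2* were whole in 0 samples, so their levels may be less certain.

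The first question was whether the expression of these complexes differed between MSUS and control Sertoli cells. At the study's threshold, an unadjusted p under 0.05 in limma voom, 7 of 60 members (11.7%) were lower in MSUS samples, against 2.4% of the 14421 genes tested, and 1 member (1.67%) was higher, against 3.02%. No member, and 0 of all genes (0.0%), had an adjusted p under 0.05. The smallest adjusted p-values over all genes were 0.878 with limma, 0.884 with edgeR's quasi-likelihood test and 0.0804 with DESeq2. Log2 fold changes were negative for 49 of the 60 members (81.7%), compared with 50.5% of all genes tested, with a median of -0.12 against -0.0018. Groups overlapped for every member; complete separation occurred in 0.132% of all genes. The differences were small, and *Coa3* alone exceeded 0.5 on the log2 scale. Beside each p of limma, an exact permutation test of the mean log2 CPM is given (two-sided, smallest possible p 0.00117). Of the 8 members past the threshold, *Sdhc*, *Cox4i1* and *Cox6a1* had an exact p above 0.05, and all 8 had an adjusted limma p of 0.878. With the level of *Malat1*, a nuclear long non-coding RNA, as covariate, 0 members were lower (1.38% of all genes tested), 31 of 60 values were negative, and the median was -0.0038. With the share of mitochondrially encoded counts as covariate, 0 members were lower (1.25% of all genes), with a median of -0.054. The count of lower members was also sensitive to individual samples, ranging from 2, without control 9 (1.57% of all genes lower), control 24 (1.88%), MSUS 5 (1.67%) or MSUS 26 (1.95%), to 14, without control 10 (3.5%). It was 4 without control 12 (background 1.84%), control 14 (2.05%) or MSUS 1 (2.29%). With edgeR 6 members were lower (2.18% of all genes) and with DESeq2 6 (2.07%), and 4 with levels centred by transcript length (2.21%). Among the 7 lower members, leaving out 1 of the 13 samples took the limma p above 0.05 in 9 cases for *Cox5a*, 8 for *Sdhc*, 7 for *Cmc2*, 6 for *Sdhd*, 5 for *Cox6a1*, 4 for *Cox4i1* and 0 for *Uqcr11*.

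**Figure D1:**
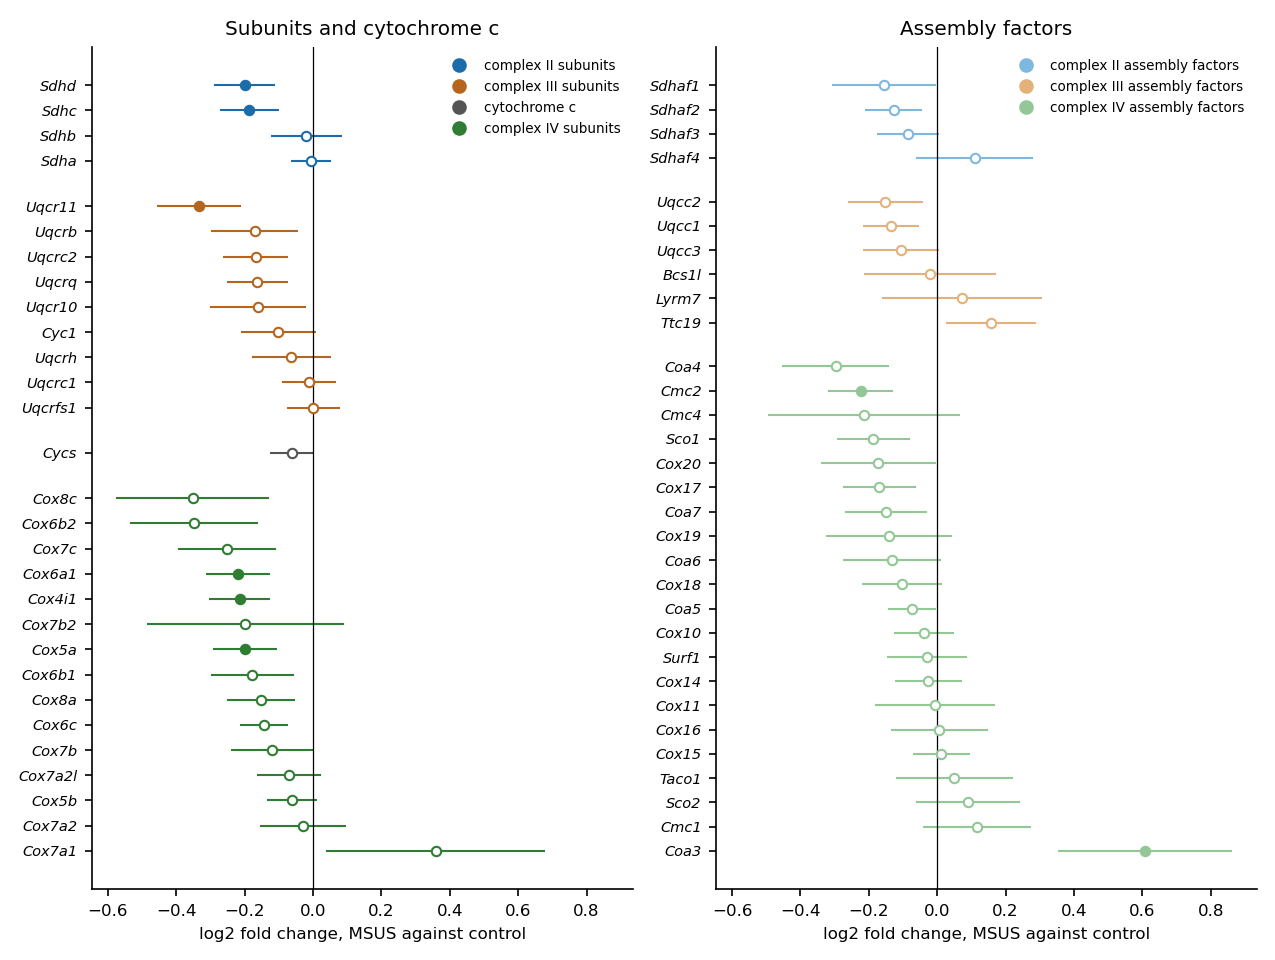
Log2 fold change of MSUS against control samples (x axis) with its standard error (bars) for the 60 members tested, subunits and *Cycs* on the left and assembly factors on the right, coloured by complex. Filled points have an unadjusted limma p under 0.05; 27 of 29 values on the left and 22 of 31 on the right are negative.

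In complex II, the membrane anchor subunits were lower in MSUS samples whereas the catalytic subunits showed values near 0. *Sdhc* (chromosome 1, 171127165 to 171150603, GRCm38) ranged from 5.42 to 5.80 log2 CPM with a median of 5.67 in control and from 5.25 to 5.63 with a median of 5.42 in MSUS samples. All 7 MSUS samples lay below the control median and 3 below every control, for a log2 difference of -0.19 ± 0.085 (standard error; limma p = 0.0435, exact permutation p = 0.0501). *Sdhd* (chromosome 9, 50596357 to 50603812) ranged from 5.47 to 5.87 with a median of 5.64 in control and from 5.17 to 5.69 with a median of 5.48 in MSUS samples. MSUS 1 had the lowest level and 3 MSUS samples lay below every control, for a log2 difference of -0.20 ± 0.088 (standard error; limma p = 0.036, exact permutation p = 0.0454). For *Sdha*, which carries the flavin and the succinate site, control samples ranged from 6.66 to 6.89 and MSUS samples from 6.66 to 6.80, so that the ranges almost coincided (log2 fold change -0.0047, exact permutation p = 0.861). *Sdhb*, the iron-sulfur subunit, stood at -0.019 ± 0.10 (standard error). The differences between the anchor and the catalytic subunits were not tested against each other. None of the 4 assembly factors passed the threshold. They ran from -0.16 for *Sdhaf1*, an iron-sulfur cluster factor, to 0.11 for *Sdhaf4*, with -0.13 for *Sdhaf2*, which attaches the flavin to *Sdha*, and their median was -0.11. Single samples moved both extremes, *Sdhaf1* to -0.073 without MSUS 26 and *Sdhaf4* to 0.026 without control 10.

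In complex III, 8 of 9 subunits had negative values with a median of -0.16 (-0.075 without MSUS 26 and -0.088 with sample quality weights), and 1 passed the threshold. This was *Uqcr11*, a small accessory subunit (chromosome 10, 80402997 to 80406830), which also had the lowest p-value of all members. It ranged from 4.98 to 5.72 log2 CPM with a median of 5.48 in control and from 4.71 to 5.34 with a median of 5.14 in MSUS samples. All 7 MSUS samples were below the control mean, although control 10 (4.98) lay below 5 of them. Its log2 fold change was -0.33 ± 0.12 (standard error; limma p = 0.0138, exact permutation p = 0.028). Other small subunits had negative values that missed the threshold, namely *Uqcrb* (-0.17), *Uqcrq* (-0.16), *Uqcr10* (-0.16) and *Uqcrh* (-0.064). The same held for the core subunit *Uqcrc2* (-0.17). The Rieske iron-sulfur protein *Uqcrfs1* was at 0.0011, the core subunit *Uqcrc1* at -0.011 and the heme-bearing *Cyc1* at -0.10. None of the 6 assembly factors passed the threshold, with values from -0.15 for *Uqcc2*, which is needed for the synthesis of cytochrome b, to 0.16 for *Ttc19*, and a median of -0.064. *Cycs*, the electron carrier between complexes III and IV, ranged from 7.65 to 8.02 in control and from 7.58 to 7.84 in MSUS samples, a difference of -0.062 ± 0.065 (standard error; exact permutation p = 0.361).

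In complex IV, 14 of the 15 subunits tested had negative values, the median was -0.18, and 3 passed the threshold. *Cox4i1*, the largest nuclear-encoded subunit (chromosome 8, 120668222 to 120674207), ranged from 6.39 to 6.83 log2 CPM with a median of 6.65 in control and from 6.22 to 6.70 with a median of 6.46 in MSUS samples. The MSUS samples 1, 5 and 26 lay below every control, while MSUS 11 and MSUS 23 reached the control range's middle. Its log2 fold change was -0.21 ± 0.089 (standard error; limma p = 0.0282, exact permutation p = 0.0571). *Cox5a* (chromosome 9, 57521274 to 57532426) ranged from 5.08 to 5.30 with a median of 5.24 in control and from 4.63 to 5.24 with a median of 5.06 in MSUS samples. Here 4 MSUS samples lay below every control, MSUS 1 farthest, for a log2 difference of -0.20 ± 0.093 (standard error; limma p = 0.0468, exact permutation p = 0.035). *Cox6a1* (chromosome 5, 115345642 to 115348981) ranged from 5.76 to 6.31 with a median of 6.01 in control and from 5.55 to 6.06 with a median of 5.76 in MSUS samples. Its log2 fold change was -0.22 ± 0.095 (standard error; limma p = 0.0322, exact permutation p = 0.0641), and its counts were whole in 3 of 13 samples.

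*Cox5a* was the member just inside the threshold. *Cox6c*, the most abundant member per length, was just outside it, with 7.38 to 7.71 in control and 7.21 to 7.54 log2 CPM in MSUS samples (log2 fold change -0.14, limma p = 0.0554, exact permutation p = 0.0641). For *Cox6c* all 7 MSUS samples were below the control mean. Values of the ubiquitous subunits *Cox7c* (-0.25), *Cox6b1* (-0.18), *Cox8a* (-0.15), *Cox7b* (-0.12), *Cox5b* (-0.061) and *Cox7a2* (-0.03) and of the supercomplex factor *Cox7a2l* (-0.069) were also negative. The testis forms *Cox8c* (-0.35 ± 0.22, standard error) and *Cox6b2* (-0.35 ± 0.19) missed the threshold, and both values depended on single samples. They were -0.15 and -0.23 without MSUS 1, and -0.49 and -0.49, past the threshold, without MSUS 11. edgeR gave -0.25 and -0.26 and DESeq2 -0.24 and -0.26. The testis form *Cox7b2* stood at -0.20 ± 0.29 (standard error), with -0.083 in edgeR and -0.078 in DESeq2. The single positive value was that of the heart and muscle form *Cox7a1* (0.36 ± 0.32, standard error), which was 0.18 without MSUS 1.

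**Figure D2:**
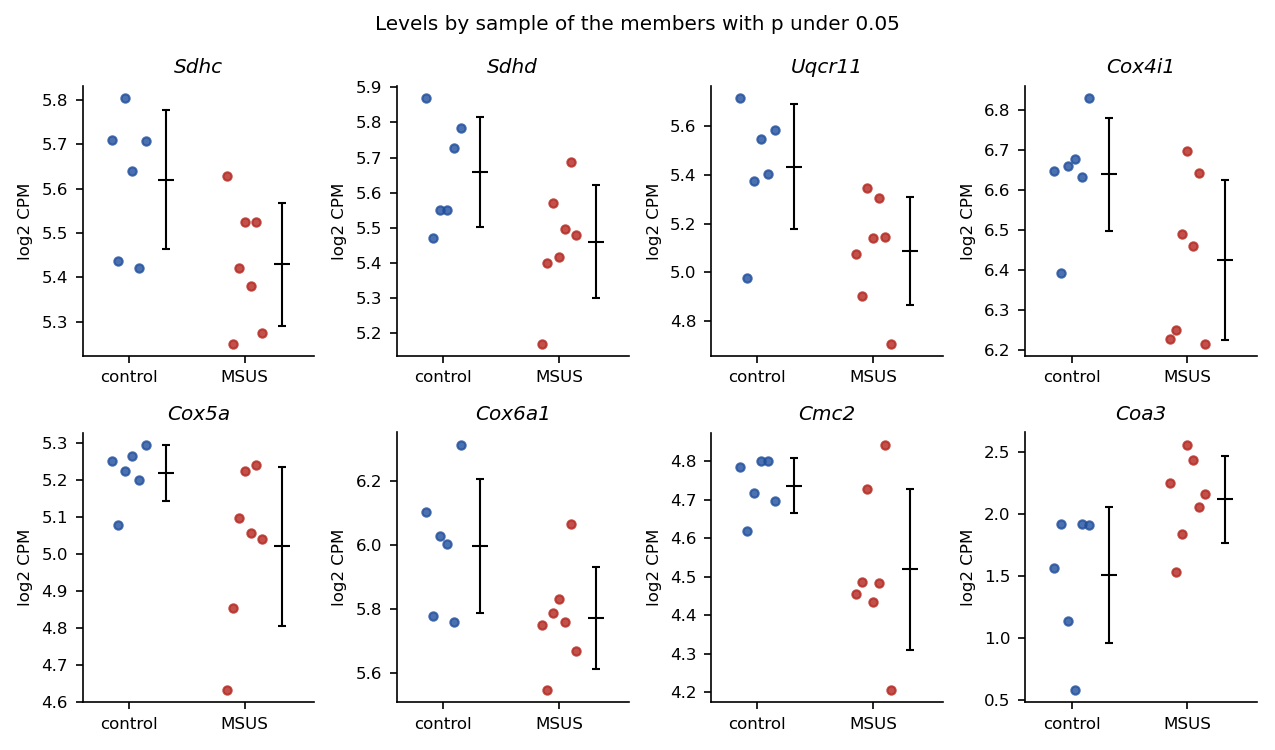
Levels in log2 CPM (y axis, a separate scale for each gene) of the 8 members with an unadjusted limma p under 0.05 in each control (blue, n = 6) and MSUS sample (red, n = 7), with mean and SD in black. The groups overlap for all 8; *Uqcr11* has the largest difference of the 7 lower members (-0.33), and *Coa3* is the 1 higher member.

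Of the 21 complex IV assembly factors, 15 had negative values, with a median of -0.073, and 1 passed the threshold in each direction. *Cmc2*, a twin CX9C protein of the intermembrane space (chromosome 8, 116888685 to 116921455), ranged from 4.62 to 4.802 log2 CPM with a median of 4.75 in control and from 4.21 to 4.84 with a median of 4.48 in MSUS samples. Of the MSUS samples 5 lay below every control, whereas MSUS 23 lay above every control. Its log2 fold change was -0.22 ± 0.096 (standard error; limma p = 0.031, exact permutation p = 0.0303), and its counts were whole in 1 of 13 samples. *Coa3*, which acts with newly made COX1 (chromosome 11, 101277968 to 101279114), ranged from 0.58 to 1.92 with a median of 1.74 in control and from 1.53 to 2.56 with a median of 2.16 in MSUS samples. Of the MSUS samples 5 lay above every control, for a log2 difference of 0.61 ± 0.25 (standard error; limma p = 0.0283, exact permutation p = 0.0315). This rested on few reads, 13 to 53 counts in a control and 30 to 62 in an MSUS sample, and the call was lost without control 12, control 14, MSUS 11 or MSUS 13.

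The remaining assembly factors had a limma p above 0.05. *Coa4* had the most negative log2 fold change (-0.30, limma p = 0.0726, exact permutation p = 0.049), and 5 MSUS samples lay below every control. The copper chaperones *Cox17*, *Sco1* and *Cox19* had values of -0.17, -0.19 and -0.14, while *Sco2* had 0.09 and *Cox11* -0.0079. For the heme A enzymes *Cox10* and *Cox15* the values were -0.039 and 0.012. *Surf1*, mutated in a form of Leigh syndrome, had -0.029, and *Taco1*, the translational activator of COX1, had 0.05. Taking the complexes together, 6 of 29 subunits including cytochrome c were lower and 0 higher (median -0.16), and 1 lower and 1 higher of 31 assembly factors (median -0.086), beside 2.4% lower and 3.02% higher of all genes tested. The difference between these classes was not tested.

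The 7 lower members were all among the more abundant ones. At a control mean of 4 log2 CPM or more, 38 of 40 members had negative values (median -0.14) and 7 were lower, compared with 51.8% negative and 2.85% lower among all genes at this level. Under 4 log2 CPM, 11 of 20 members were negative (median -0.015) and 0 lower, compared with 48.8% and 1.85%. Standard errors ran from 0.12 (*Cox18*) to 0.32 (*Cox7a1*) in these 20, and from 0.085 (*Sdhc*) to 0.12 (*Uqcr11*) in the 7 lower members. Differences of the same size were thus less likely to pass at the low level. Apart from *Cox6b2*, *Cox7a1* and *Cox7b2* the 20 were assembly factors, so level and class were not separated. The level of 4 was chosen after the values were seen.

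Levels within the complexes were compared per length in control samples, as CPM per kb of the median coding transcript of the GENCODE vM21 annotation. In complex II, *Sdhc* (60.4 ± 6.44; SD, n = 6), *Sdha* (59.3 ± 4.63), *Sdhb* (48.9 ± 5.23) and *Sdhd* (41.1 ± 4.52) were close in level, and *Sdhc* and *Sdha* did not differ beyond their spread. In complex III, *Uqcrq* (255.4 ± 28.1), *Uqcrc1* (192.8 ± 23.4) and *Uqcrh* (127.8 ± 19.1) came first and *Uqcrc2* (39.6 ± 4.42) last. In complex IV the order was led by *Cox6c* (312 ± 26.3), *Cox5b* (137.3 ± 5.82) and *Cox4i1* (134.2 ± 12.8), of which the last pair did not differ beyond their spread. *Cycs* was at 70.2 ± 6.86. These levels depend on the transcript length used: with the longest coding transcript, *Sdhc* was at 15.5, below the other subunits of complex II, and complex III was led by *Uqcrh* (110.8) and *Uqcr11* (97.9), ahead of *Uqcrq* (84.6) and *Uqcrc1* (62.2), with *Cyc1* (24.6) and *Uqcrc2* (24.6) last. *Cox6c* (256.2) still led complex IV, followed by *Cox4i1* (130.7) and *Cox6a1* (112.5). The assembly factors were lower as a rule, with *Uqcc2* (94.99 ± 7.07) and *Cox14* (76.7 ± 13.6) as their most abundant members and *Lyrm7* (0.9 ± 0.25) as the lowest.

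The next question was which tissue isoforms of cytochrome c oxidase the control Sertoli cells expressed. For 5 pairs a ubiquitous and a tissue form could be compared, including *Cycs* with the testis cytochrome c *Cyct*, which the symbol rule did not hold. In each of them the ubiquitous form was higher per length in every control sample. The log2 ratio was 1.00 ± 0.32 (SD, n = 6) for *Cox6b1* over the testis form *Cox6b2*, that is 2.0-fold. It was 0.96 ± 0.32 for *Cox8a* over the testis form *Cox8c* (1.94-fold) and 0.56 ± 0.30 for *Cox7b* over the testis form *Cox7b2* (1.47-fold). In control 24 the ratio of *Cox7b* over *Cox7b2* was only 0.044. It rests on annotated lengths of 1001 and 542 bases, with 1 coding transcript for each gene, so no other length was tried. For *Cox7a2* over the heart and muscle form *Cox7a1* the ratio was 2.40 ± 0.30 (5.28-fold), and for *Cycs* over *Cyct* it was 2.22 ± 0.21 (4.64-fold). In every pair the exact sign-flip permutation test over the 6 samples gave p = 0.0312, the smallest it can give, and the same value after adjustment over the 5 pairs. The lung form *Cox4i2* and the heart and muscle forms *Cox6a2* and *Cox8b* were at the limit of detection. Over all control samples *Cox4i2* had 1 count against 7190 of *Cox4i1*, a ratio per length of 7045 (exact 95% interval 1264 to 278300, counting error only). *Cox6a2* and *Cox8b* had 0 counts, so *Cox6a1* was at least 1826-fold and *Cox8a* at least 771.3-fold higher per length, taking 3 counts over the group as the floor.

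**Figure D3:**
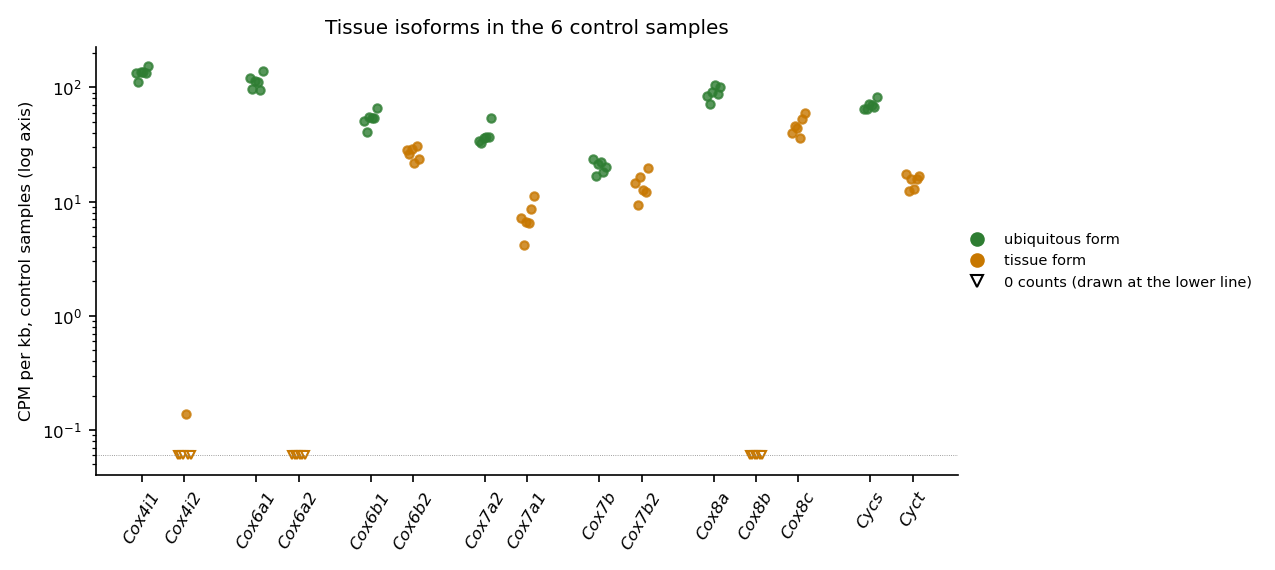
CPM per kb of median coding transcript length (y axis, log scale) of ubiquitous (green) and tissue forms (orange) in the 6 control samples, 1 point per sample. Triangles on the lower line mark samples with 0 counts; *Cox4i2* has 1 count in 1 sample, whereas *Cox6b2*, *Cox7b2*, *Cox8c*, *Cox7a1* and *Cyct* are detected in all 6.

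The testis forms *Cox6b2*, *Cox7b2*, *Cox8c* and *Cyct* are best known from germ cells. In control samples *Cox8c* stood at 46.5 ± 8.41, *Cox6b2* at 26.6 ± 3.35, *Cyct* at 15.1 ± 2.08 and *Cox7b2* at 14.1 ± 3.56 CPM per kb. Among MSUS samples these genes moved with the spermatocyte markers at the extremes. MSUS 1, with the lowest mean of these markers (5.84 log2 CPM), had the lowest *Cox8c* (2.93), *Cox6b2* (2.56), *Cox7b2* (1.56) and *Cyct* (2.25). MSUS 11, with the highest (7.05), had the highest *Cox8c* (4.90), *Cox6b2* (4.09) and *Cyct* (3.61), though not *Cox7b2*. This sample also had the highest means of the elongated (8.56) and round spermatid markers (4.03). With the spermatocyte score as covariate, an alternative chosen after seeing the data, the log2 fold changes were -0.095 for *Cox8c*, -0.14 for *Cox6b2*, 0.047 for *Cox7b2* and -0.31 for *Cyct*. With the spermatid score as covariate they were -0.40, -0.38, -0.27 and -0.51, respectively. The gate for diploid cells is meant to leave out haploid spermatids and tetraploid cells, which the paper describes as dividing. Whether these transcripts came from germ cells was not tested.

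The isoform ratios did not differ detectably between the groups. MSUS minus control differences of the log2 ratio were 0.14 for *Cox6b1* over *Cox6b2*, -0.35 for *Cox7a2* over *Cox7a1*, 0.075 for *Cox7b* over *Cox7b2* and 0.17 for *Cox8a* over *Cox8c* (exact permutation tests, two-sided, p from 0.386 to 0.806, adjusted p from 0.793 to 0.806 over 5 pairs). Without MSUS 1 these differences were 0.033, -0.11, -0.11 and -0.049, so the sign turned for *Cox7b* over *Cox7b2* and *Cox8a* over *Cox8c*. The largest shift over all samples was that of *Cycs* over *Cyct*, 0.42, and 6 of 7 MSUS samples exceeded the control mean (exact permutation p = 0.0734, adjusted p = 0.367). *Cyct* itself ranged from 3.04 to 3.53 log2 CPM in control and from 2.25 to 3.61 in MSUS samples. Of the MSUS samples 5 lay below every control and MSUS 11 above every control (log2 fold change -0.48 ± 0.18, standard error; limma p = 0.0143, exact permutation p = 0.0291). With *Malat1* as covariate this became -0.25 and with the mitochondrial share -0.33, neither past the threshold, whereas it remained past it with the spermatocyte score (-0.31) or the spermatid score (-0.51).

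The core subunits encoded by mitochondrial DNA had positive values, except *COX3*, although *CYTB* and *COX2* changed sign with *Malat1* as covariate (-0.012 and -0.054). *COX1*, the catalytic subunit of complex IV, ranged from 11.8 to 12.8 log2 CPM with a median of 12.5 in control and from 12.4 to 13.4 with a median of 13.1 in MSUS samples. The MSUS samples 1, 5, 6 and 26 lay above every control, for a log2 difference of 0.52 ± 0.19 (standard error; limma p = 0.0123, exact permutation p = 0.049). With *Malat1* as covariate the difference of *COX1* was 0.0051, and with the mitochondrial share, of which *COX1* is itself a part, 0.13, and neither passed the threshold. *CYTB* of complex III had 0.47 (limma p = 0.0204, exact permutation p = 0.0618) and *COX2* 0.44 (limma p = 0.036, exact permutation p = 0.0921), and the same 4 MSUS samples were above every control. *COX3* ranged from 10.5 to 11.1 in control and from 10.3 to 11.1 in MSUS samples (-0.093, exact permutation p = 0.515). Per length, in control samples *COX1* was at 3671 ± 891.2, *COX3* at 2442 ± 306.8, *COX2* at 1729 ± 322.3 and *CYTB* at 1106 ± 277.2 CPM per kb, all above every nuclear member. Of the 13 genes of mitochondrial DNA, 7 were higher, against 3.02% of all genes tested, and 0 lower, with a median of 0.40.

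Other nuclear genes of the pathway were mostly negative too, with few past the threshold. Of 36 complex I subunits 33 were negative (median -0.064), with 2 lower and 0 higher, beside 50.5% negative, 2.4% lower and 3.02% higher of all genes tested. The lower genes were *Ndufa9* (-0.20, limma p = 0.0187, exact permutation p = 0.00583) and *Ndufa1* (-0.27, limma p = 0.0268, exact permutation p = 0.0315). Of 17 subunits of the ATP synthase 16 were negative (median -0.087), with 0 past the threshold. Another 10 genes of complex IV biogenesis gave 8 negative values, a median of -0.049 and 0 past the threshold. Of the regulators *Ppargc1a*, *Nrf1*, *Gabpa*, *Tfam*, *Esrra* and *Yy1*, 5 were tested, 0 passed, and their median was -0.025.

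The level of the members as a whole varied between samples. As the median deviation of the 60 members from the control mean, control samples stood at -0.18 (control 10), -0.051 (control 22), -0.0065 (control 12), 0.026 (control 14), 0.073 (control 9) and 0.12 (control 24). MSUS samples stood at -0.27 (MSUS 26), -0.20 (MSUS 5), -0.10 (MSUS 11), -0.08 (MSUS 1), -0.079 (MSUS 6), -0.049 (MSUS 13) and 0.0012 (MSUS 23). The ranges overlapped, with MSUS 26 and MSUS 5 lowest and control 10 next to them. *Malat1* showed a roughly inverted pattern. MSUS 5 (11.3 log2 CPM), MSUS 26 (11.1), MSUS 6 (10.8) and control 10 (10.7) had its highest levels, and control 24 (9.16) and control 9 (9.46) its lowest, while MSUS 11 (10.26) was in the middle. *Malat1* averaged 9.93 ± 0.56 (SD, n = 6) in control and 10.6 ± 0.43 (SD, n = 7) in MSUS samples, and all 7 of the latter exceeded the control mean (log2 fold change 0.70 ± 0.22, standard error; limma p = 0.00505, exact permutation p = 0.028, adjusted p = 0.308 over the 11 measures compared). The share of counts on the 13 genes of mitochondrial DNA was 1.98 ± 0.42% (SD, n = 6) and 2.48 ± 0.57% (SD, n = 7), lowest in control 24 (1.26%) and highest in MSUS 5 (3.16%). No difference of this share between the groups was detected (exact permutation p = 0.111, adjusted p = 0.596 over the 11 measures). MSUS 5 and MSUS 26 also had the highest means of the 2 peritubular myoid markers past the filter (5.29 and 4.88 log2 CPM), followed by control 22 (4.77). Of the 4 spermatogonia markers only *Dazl* and *Kit* passed the count filter, and *Kit* was low (control mean 0.27 log2 CPM). The mean of these 2 genes was lowest in MSUS 5 and MSUS 26 (1.7 and 1.74), followed by control 9 (1.82). Whether these markers bear on the level of the members was not tested.

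**Figure D4:**
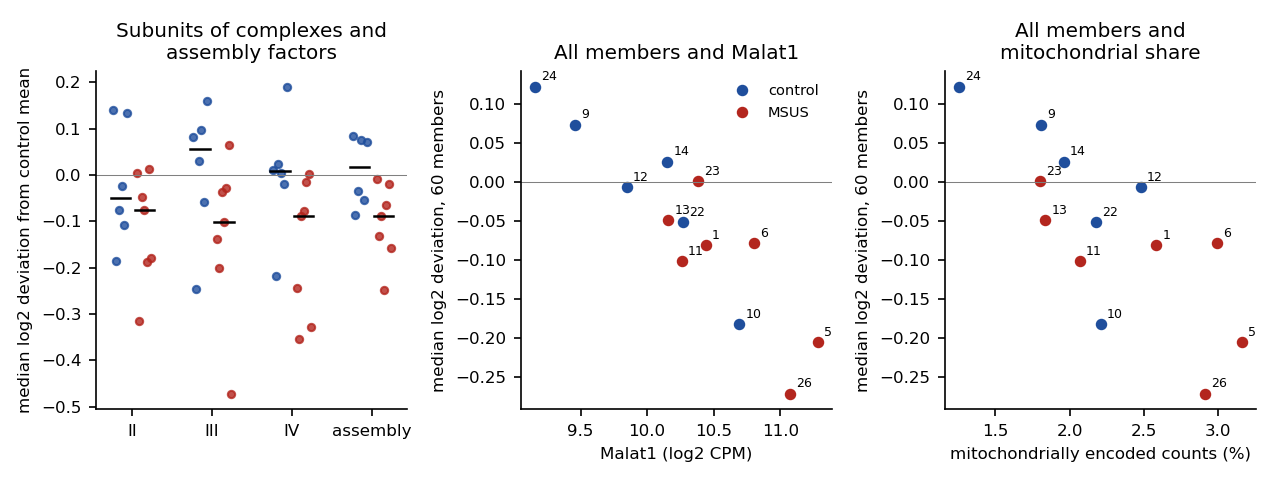
Left, median log2 deviation from the control mean (y axis) by sample for subunits of complexes II, III and IV and for all assembly factors, control in blue, MSUS in red, with group medians as black bars. Middle and right, the median deviation of the 60 members against *Malat1* (log2 CPM) and against the share of mitochondrially encoded counts (%), with replicate numbers; MSUS 5 and 26 combine low members with high values of both, and control 24 the reverse.

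*Coa3* kept a p under 0.05 in the fits with *Malat1* and with the mitochondrial share as covariate, with log2 fold changes of 0.86 and 0.81. With the spermatocyte score as covariate 4 members were lower (2.28% of all genes), *Uqcr11* among them (-0.32). The part of nuclear RNA content or mitochondrial share in the lower levels was not tested beyond these fits.

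**Figure D5:**
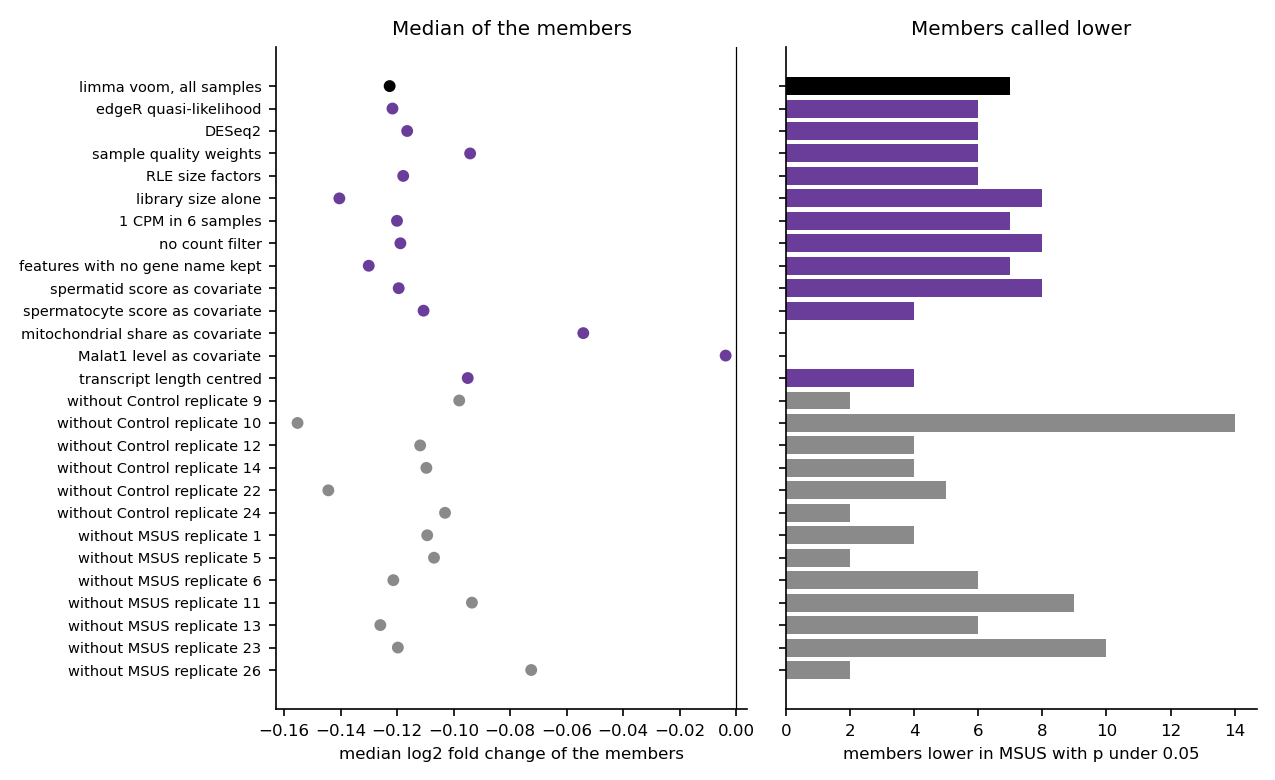
Median log2 fold change of the members (left) and number of members lower in MSUS samples at p under 0.05 (right) for limma voom on all samples (black), 13 other settings (purple) and each sample left out in turn (grey). The median is negative in all 27, from -0.16 without control 10 to -0.0038 with *Malat1* as covariate, and the count runs from 0 to 14.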

How the data were processed

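RNA from enriched Sertoli cells of 6 control and 7 MSUS males was sequenced with a stranded total RNA kit from 5 ng per sample. The authors trimmed reads with Trim Galore 0.6.5, quantified them with Salmon 1.1.0 against GENCODE vM23 and deposited estimated counts per gene without normalization; how transcripts were summed to genes is not given in the sources used here. Of 54281 features, 27170 had no gene name and held 20.7% to 26.7% of the counts of a sample. Library sizes and tests exclude them. No column was unmatched.

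Estimated counts were rounded and filtered with filterByExpr, steps the study's methods do not name. As in those methods, they were normalized with TMM (here edgeR 4.0.16, R 4.3.3) and fitted with limma voom (here 3.58.1), with Benjamini-Hochberg adjustment over 14421 genes. Levels are given in log2 CPM (prior count 2). Isoform ratios used counts plus 0.5 per kb of the median coding transcript (GENCODE vM21) and exact permutation tests (scipy 1.17.1); 3 of 8 planned pairs, whose tissue form had at most 3 counts, were not tested because the ratio would rest on the added 0.5. All intervals and floors cover counting error only. Counts of 14421 genes were simulated with a dispersion of 0.05 for every gene, a value not estimated from these data. The fit gave p under 0.05 to 35.4% of genes changed by 0.3 on the log2 scale and to 4.8% of unchanged genes. An adjusted p under 0.05 was given to 0% of genes changed by 0.3, 22.4% at 0.5 and 84% at 1. The simulation was not matched to the standard errors of the data (median 0.116 for members, 0.128 for all genes). These shares are therefore not recovery rates for the data.

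Genes named are every member with p under 0.05, the extremes and the most abundant member of each class. Also named are isoform pairs, untested members, and CYTB and COX1 to COX3. Further members were named after their values were seen, and the fold changes of some members are not given. Exact permutation tests of single genes were added after seeing the data. Members and lists were chosen with earlier results of these data known. Alternatives were edgeR's quasi-likelihood test, DESeq2 1.42.0, sample weights, other normalizations and filters, unnamed features kept, covariates, centring by transcript length (20 bins) and leaving out each sample.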

Additional observations from a re-analysis of the deposited data

Results flagged for a closer look

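Of 110 groups of values examined for a single sample far from the rest, 5 held one, where chance alone flags about 1 group in 20 (5.5 expected). *Cox7a2* was 5.15 log2 CPM in control 24, against 4.43 to 4.62 in the other control samples. *COX3* was 10.27 log2 CPM in MSUS 23, against 10.75 to 11.1 in the other MSUS samples. Among the marker lists, given as means of log2 CPM, round spermatid markers stood at 4.03 in MSUS 11 (others 3.04 to 3.34), spermatocyte markers at 6.29 in control 14 (others 6.58 to 6.73) and Leydig cell markers at 1.35 in control 9 (others 2.54 to 3.18).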

How the results depend on the processing

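The median of the members and of each class kept its sign in the 13 settings that used all samples and in the 13 that left out a sample, except with *Malat1* as covariate, where complex II assembly factors (0.0013), complex III subunits (0.049), complex III assembly factors (0.0496), cytochrome c (0.027) and complex IV subunits (0.013) were positive and the median of all members was -0.0038. With that covariate 31 members were negative and 0 lower at p under 0.05, 401 of all genes had p under 0.05, and *CYTB* (-0.012) and *COX2* (-0.054) changed sign. With the mitochondrial share as covariate, 0 members were lower and 403 genes had p under 0.05. Members lower numbered 4 with levels centred by transcript length and 4 with the spermatocyte score as covariate, which was chosen after seeing the data. Genes with p under 0.05, 781 in the fit reported, numbered 1182 with no count filter and 1204 with the spermatid score as covariate. The cause of these shifts was not tested. Leaving out single samples gave 2 to 14 lower and 0 to 1 higher members, medians of complex III assembly factors from -0.15 to -0.00015, a median of -0.073 for all members and -0.12 for complex IV subunits without MSUS 26, -0.046 for complex IV assembly factors without control 14 and -0.014 for cytochrome c without control 24, and 534 to 1121 genes with p under 0.05. The isoform ratios in control then ran from 0.90 to 1.07 (*Cox6b1*/*Cox6b2*), 2.29 to 2.46 (*Cox7a2*/*Cox7a1*), 0.50 to 0.66 (*Cox7b*/*Cox7b2*), 0.85 to 1.02 (*Cox8a*/*Cox8c*) and 2.17 to 2.28 (*Cycs*/*Cyct*), and 5 samples cannot reach a p below 0.0625. The group difference of *Cycs*/*Cyct* ran from 0.31 to 0.57, the latter without MSUS 11, where its unadjusted p was under 0.05. No paired analysis was possible because the groups share no replicate number, and litter and cage were not used here. *Coa3* and *Cox7a1* rested on few counts.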
